A study of Mus musculus with 12 samples.

Results

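The general endothelial and angiogenic genes described here are 10 of the 32285 genes in the matrices, followed from perfused liver into culture: Pecam1, Cdh5, Tek, Tie1, Flt1, Vwf, Nrp1, Nrp2, Apln and Angpt2. All 10 passed the filter on low counts, Apln only through its UMIs in Primary Hepatocytes, so that Apln is described with no test and left out of the counts of genes called. The nuclei came from 8 male wild-type mice, 10 to 12 weeks old, whose strain is C57BL/6NTac in the study's methods and C57BL6J in the labels. From each mouse a piece of perfused liver was frozen before collagenase (Liver), a cell pellet was taken after collagenase and slow spins that favour hepatocytes (Cell Suspension), and plated cells were harvested after 24 hours on collagen with dexamethasone and insulin (Primary Hepatocytes). The 24 samples, 8 per group, were tagged with hashtag antibodies and mixed 4 to a pool in 6 pools for single-nucleus RNA sequencing.

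Pecam1 and Cdh5 (VE-cadherin) hold neighbouring endothelial cells together at their junctions. Tek (Tie2) is the receptor for the angiopoietins, Tie1 is its partner receptor, and Angpt2 is a ligand that quiescent vessels hold low and sprouting vessels release, often against the stabilising ligand Angpt1. Flt1 is a VEGF receptor that binds VEGF tightly but signals weakly, Nrp1 and Nrp2 are co-receptors for VEGFs and class 3 semaphorins, Apln encodes the tip cell peptide apelin, and Vwf encodes von Willebrand factor, which large vessels store in Weibel-Palade bodies and liver sinusoids largely lack. In liver the sinusoidal endothelium is fenestrated and outnumbers the lining of central veins, portal veins and arteries.

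The endothelial nuclei numbered 5435 of 53467, taken as those the authors annotated as endothelial plus cluster 12 of their cultured cells. In Liver they comprised 1982 nuclei of cluster 3, the main sinusoidal cluster, with 490 nuclei in clusters 24 and 26 and 2 in cluster 12. In Cell Suspension 1068 nuclei lay in cluster 3, 58 in clusters 24 and 26 and 26 in cluster 12, and in Primary Hepatocytes 1733 of 1809 lay in cluster 12 of the cultured cells. The endothelial UMIs (unique molecular identifiers, one per captured RNA molecule) of a sample summed to 480577 to 2578536 in Liver, against 143093 to 677603 for Cell Suspension and 95289 to 975374 for Primary Hepatocytes, so that the Liver values rest on the most UMIs. One library stood apart: the Primary Hepatocytes sample of mouse 7 held 29 endothelial nuclei, 17 of them in cluster 3 and only 12 in cluster 12, and the members' fits in endothelial nuclei were run without it as well. Among the 9 members tested, Cdh5 against Liver was the only log2 difference whose call changed without it. Of the barcodes, 337 occurred in more than 1 pool, 63 of them on an endothelial nucleus. As a measure of hepatocyte RNA, 10 hepatocyte genes were summed in CPM (UMI counts scaled to the same total for every sample). In endothelial nuclei they came to 2257 to 4964 CPM for Liver, 2091 to 7156 for Cell Suspension and 1417 to 4807 for Primary Hepatocytes. In hepatocyte nuclei they came to 12958 to 19155, 13623 to 20345 and 2799 to 6971 CPM. The endothelial and hepatocyte ranges thus overlapped in Primary Hepatocytes and not in the other groups. None of the 10 was called higher in endothelial nuclei of Primary Hepatocytes than of Liver and 4 were called lower. Uncalled genes could still differ in level: the median of Alb was 768 CPM in Liver and 1300 in Primary Hepatocytes. That of Cps1 went the other way, from 856 to 621 CPM. The part of the 10 genes in the results was not tested. Of 10 sinusoidal genes 9 were called lower in Primary Hepatocytes than in Liver, and the other was Lyve1. Each was detected in every group. Of 10 genes of arteries and veins 7 were called lower and 1 was called higher. They summed to 653 to 1495 CPM in Liver, 252 to 681 for Cell Suspension and 119 to 263 for Primary Hepatocytes. Called higher in Primary Hepatocytes were 2 of 4 lymphatic genes tested, 2 of 4 biliary genes and 2 of 2 platelet genes. The biliary genes summed to 18.7 to 103 CPM in Liver and 38.7 to 189 in Primary Hepatocytes, where Krt7 and Krt19 had no UMI. The platelet genes summed to 0 to 7.46 and 9.68 to 27.3 CPM, with Ppbp at 0 in both groups. The part of these lists in the results was not tested.

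The question of the first comparison was how the endothelial genes stood after 24 hours of culture relative to the tissue. Relative to Liver, 7 of the other 9 genes changed in endothelial nuclei of Primary Hepatocytes, 6 lower and 1 higher. Vwf fell most, followed by Nrp1, Tie1, Nrp2, Tek and Flt1, whereas Angpt2 rose and the junction genes Pecam1 and Cdh5 did not pass the test. In edgeR's quasi-likelihood test on UMIs summed per sample, with adjusted p under 0.05, 33.8% of 18279 genes were called, 15.4% higher and 18.4% lower. The median log2 fold change was -1.30 over the 9 genes and -0.01 over all genes. The levels below are CPM scaled by TMM (edgeR's correction for library composition), as lowest, median and highest of the 8 samples of a group. In summed nuclei, fewer nuclei of the type that carries a gene and less of its RNA per nucleus cannot be told apart.

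**Figure D1:**
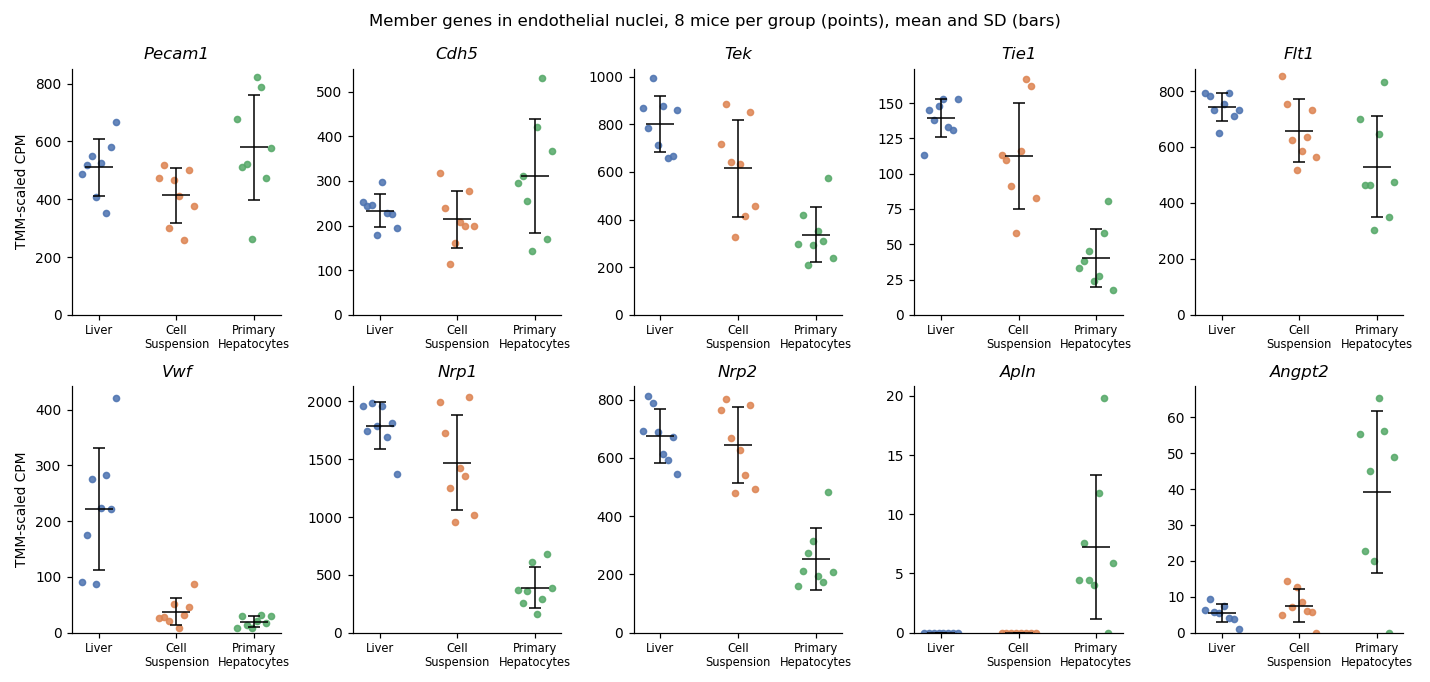
TMM-scaled CPM (vertical axes, linear) of the 10 genes in endothelial nuclei by group (horizontal axes); points are the 8 mice of a group, and bars give the mean and SD. Tek, Tie1, Vwf, Nrp1 and Nrp2 of Primary Hepatocytes lie below every Liver sample, and Apln has no UMI in any Liver or Cell Suspension sample.

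Among the junction genes, Pecam1 (chr11:106654217-106750628, GRCm38), an adhesion molecule of endothelium and leukocytes, was at 352, 522 and 668 CPM in Liver, 259, 439 and 517 in Cell Suspension and 264, 550 and 824 in Primary Hepatocytes. The groups overlapped throughout. The difference between Primary Hepatocytes and Liver was 0.20 ± 0.171 on the log2 scale (SE, edgeR adjusted p = 0.398), and that between Primary Hepatocytes and Cell Suspension was 0.49 ± 0.176 (edgeR adjusted p = 0.0427). Cdh5 (chr8:104101625-104144511, overlapping the antisense gene Gm29682), the cadherin that defines endothelial junctions, was at 179, 236 and 298 CPM in Liver, 113, 202 and 318 in Cell Suspension and 144, 303 and 531 in Primary Hepatocytes. The Primary Hepatocytes samples of mice 5, 6 and 8, at 421, 531 and 367 CPM, exceeded every sample of the other groups, but those of mice 4 and 7, at 144 and 170 CPM, lay below the Liver range. The log2 difference was 0.45 ± 0.185 against Liver (edgeR adjusted p = 0.0532) and 0.54 ± 0.195 against Cell Suspension (edgeR adjusted p = 0.0427). Both calls against Cell Suspension were lost with pool as a covariate (Pecam1 0.24, adjusted p = 0.374; Cdh5 0.25, adjusted p = 0.414). The difference of Cdh5 against Liver was called under other scalings (RLE size factors 0.61, edgeR adjusted p = 0.00491; DESeq2 0.60, adjusted p = 0.00651) and without the Primary Hepatocytes sample of mouse 7 (0.52, edgeR adjusted p = 0.0267).

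The Tie receptors fell together, and Angpt2, a ligand of Tek, rose. Tek (chr4:94739289-94874976), which angiopoietins activate, was at 659, 823 and 995 CPM in Liver, 327, 636 and 887 in Cell Suspension and 209, 303 and 573 in Primary Hepatocytes. Every Primary Hepatocytes sample lay below every Liver sample, while the Cell Suspension samples overlapped with both. The log2 difference of Primary Hepatocytes was -1.30 ± 0.183 against Liver (edgeR adjusted p = 1.59e-07) and -0.93 ± 0.185 against Cell Suspension (edgeR adjusted p = 0.000144). Tie1 (chr4:118471191-118490061), which modulates Tek at the membrane, was at 113, 142 and 153 CPM in Liver, 57.7, 112 and 167 in Cell Suspension and 17.6, 35.6 and 80.6 in Primary Hepatocytes. Again no Primary Hepatocytes sample reached the lowest Liver sample, and the highest of them was that of mouse 7. The log2 difference was -1.89 ± 0.203 against Liver (edgeR adjusted p = 3.1e-10) and -1.60 ± 0.218 against Cell Suspension (edgeR adjusted p = 1.75e-07).

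Angpt2 was sparse in the tissue, with 47 UMIs over the 8 Liver samples, 17 over the Cell Suspension samples and 176 over the Primary Hepatocytes samples. Per sample it was at 1.09, 5.71 and 9.33 CPM in Liver, 0, 6.6 and 14.5 in Cell Suspension and 0, 47.0 and 65.3 in Primary Hepatocytes. The single Primary Hepatocytes sample at 0 was that of mouse 7. The other 7 lay between 20 and 65.3 CPM, above every Liver and Cell Suspension sample. The log2 difference was 3.01 ± 0.308 against Liver (edgeR adjusted p = 9.59e-11) and 2.61 ± 0.387 against Cell Suspension (edgeR adjusted p = 9.69e-07). Of the 176 UMIs, 174 came from cluster 12. Angpt2 lies at chr8:18690263-18741562 (GRCm38, minus strand) inside Mcph1, which is on the opposite strand, and 162 of its Primary Hepatocytes UMIs were spliced against 12 unspliced.

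Of the VEGF-binding members, Flt1 changed least. Flt1 (chr5:147561604-147726011), which traps VEGF, was at 649, 743 and 794 CPM in Liver, 519, 631 and 853 in Cell Suspension and 304, 470 and 832 in Primary Hepatocytes. The ranges overlapped, and the log2 difference of Primary Hepatocytes was -0.47 ± 0.157 against Liver (edgeR adjusted p = 0.0179) and -0.30 ± 0.159 against Cell Suspension (edgeR adjusted p = 0.201). The call against Liver did not hold under other scalings (RLE size factors -0.31, edgeR adjusted p = 0.0856; DESeq2 -0.30, adjusted p = 0.0737), or without mouse 2, 3, 4 or 8 (-0.44 to -0.35, edgeR adjusted p = 0.0576 to 0.118).

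The neuropilins fell by more. Nrp1 (chr8:128358604-128503363), the co-receptor of Flt1 and Kdr, was at 1370, 1803 and 1989 CPM in Liver, 961, 1389 and 2035 in Cell Suspension and 158, 362 and 680 in Primary Hepatocytes. The Primary Hepatocytes samples lay below every sample of both other groups. The log2 difference was -2.24 ± 0.204 against Liver (edgeR adjusted p = 5.01e-12) and -1.96 ± 0.204 against Cell Suspension (edgeR adjusted p = 4.19e-10). Nrp2 (chr1:62703285-62818695, overlapping the antisense gene Gm29083), which also serves VEGF-C and its receptor, was at 544, 681 and 812 CPM in Liver, 481, 647 and 801 in Cell Suspension and 160, 211 and 483 in Primary Hepatocytes. Only the Primary Hepatocytes sample of mouse 7 reached the lowest Cell Suspension sample, and none reached Liver. The log2 difference was -1.48 ± 0.173 against Liver (edgeR adjusted p = 2.8e-09) and -1.42 ± 0.176 against Cell Suspension (edgeR adjusted p = 2.33e-08).

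Apln (chrX:48025146-48034853), the apelin precursor, had no UMI in 8793384 endothelial UMIs of Liver and none in 2520598 of Cell Suspension. In Primary Hepatocytes it had 33 UMIs, 0, 5.19 and 19.8 CPM per sample, and the sample at 0 was again that of mouse 7. The pooled level of 9.80 CPM (exact Poisson interval 6.74 to 13.8) was 28.7-fold a floor of 3 counts over the Liver group. It was 8.23-fold the same floor in Cell Suspension. These folds leave out the counting error of the 33 UMIs and the spread between mice, so they are not lower bounds. All 33 UMIs came from cluster 12, and 25 were spliced. The 75 nuclei of cluster 3 in Primary Hepatocytes had none, which at 420291 UMIs allows up to 8.78 CPM (exact Poisson interval, counting error only).

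**Figure D2:**
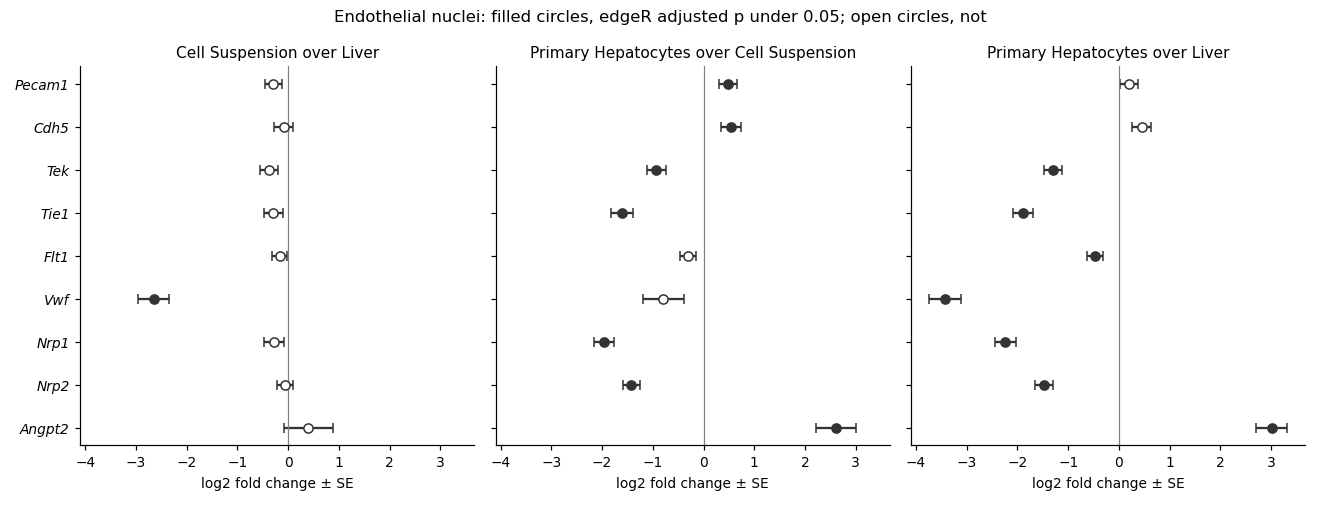
log2 fold change and SE (horizontal axes) of 9 genes in endothelial nuclei in the 3 comparisons, Apln left out since 2 groups had no UMI; filled circles have an edgeR adjusted p under 0.05. Vwf is the only filled circle in the comparison of Cell Suspension with Liver.

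The isolation step alone was compared next. Between Cell Suspension and Liver, 1 of the 9 genes was called, against 3.9% of 18279 genes, 2.03% higher and 1.87% lower, and that gene was Vwf. Vwf (chr6:125546774-125686679) was at 86.9, 222 and 421 CPM in Liver, 8.5, 29.9 and 87.4 in Cell Suspension and 8.0, 19.1 and 31.9 in Primary Hepatocytes. Only the lowest Liver sample lay below the highest Cell Suspension sample. The log2 difference was -2.65 ± 0.303 for Cell Suspension against Liver (edgeR adjusted p = 3.6e-08), -3.43 ± 0.311 for Primary Hepatocytes against Liver (edgeR adjusted p = 4.4e-12) and -0.79 ± 0.397 for Primary Hepatocytes against Cell Suspension (edgeR adjusted p = 0.173). The last became -0.93 (edgeR adjusted p = 0.0215) when mouse entered as a replicate block. The others lay between -0.37 for Tek and 0.40 for Angpt2 in Cell Suspension against Liver, and Apln had 0 counts in both groups. With pool as a covariate Tek was called as well (-0.58, edgeR adjusted p = 0.0462). Between Primary Hepatocytes and Cell Suspension 7 of the 9 were called, 3 higher and 4 lower, against 20% of all genes, 9.33% higher and 10.7% lower. Without mouse 3, 5 or 6, Pecam1 (0.35 to 0.46) and Cdh5 (0.37 to 0.50) no longer passed, and without mouse 1 or 8 one of the pair was lost. These comparisons share samples and are not independent of each other.

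Within the Liver endothelium, Vwf, Nrp1 and Nrp2 did not overlap between cluster 3 and the nuclei outside it, Vwf being lower in cluster 3 and the neuropilins higher, which describes clusters made from these same values. Nrp1 was at 1554 to 2166 CPM in cluster 3 and 785 to 1182 CPM outside it, and Nrp2 at 604 to 843 and 291 to 408 CPM. In unscaled CPM, Vwf was at 1.60, 5.96 and 13.8 in cluster 3 nuclei of Liver and at 504, 1082 and 1360 in the Liver nuclei outside cluster 3, with no overlap in the 8 mice. The nuclei outside cluster 3 made up 8.18 to 34.0% of the Liver endothelial nuclei outside the culture cluster, 2.50 to 11.1% of those in Cell Suspension, and 1 nucleus in Primary Hepatocytes. The artery and vein genes, among which Vwf was not counted, had a mean sum of 974 CPM in Liver and 467 CPM in Cell Suspension over all endothelial nuclei. Most of that difference was Rspo3, at means of 531 and 159 CPM, and without it the sums were 443 and 308 CPM. The means of Gja4 (8.93 and 15.5 CPM), Thbd (12.4 and 24.9 CPM) and Ackr1 (0.855 and 1.89 CPM) lay the other way. Of the Vwf UMIs of Liver 1960 came from the 490 nuclei outside cluster 3 and 57 from the 1982 nuclei within it. Within cluster 3, none of 9 genes tested was called between Cell Suspension and Liver, against 2.79% of 15995 genes, 1.86% higher and 0.932% lower. At an unadjusted p under 0.05 there was 1, Nrp1 (-0.34 ± 0.151, edgeR adjusted p = 0.276), against 14.5% of all genes, so that 1 of 9 is no more than the background. DESeq2 also called none of the 9. Vwf differed there by 0.19 ± 0.541 (edgeR adjusted p = 0.917). Only 1 Cell Suspension sample, that of mouse 8, had 10 or more nuclei outside cluster 3, with Vwf at 659 CPM. Pooled over all 58 such Cell Suspension nuclei, Vwf was at 349 CPM (exact Poisson interval 266 to 449, counting error only). The pooled Liver level was 1120 CPM (1071 to 1171). By cluster, the pooled levels in Cell Suspension and Liver were 548 and 1262 CPM in cluster 24 and 189 and 927 CPM in cluster 26. No test between the groups was run outside cluster 3.

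Setting cluster 3 of Liver and Cell Suspension against cluster 12 of Primary Hepatocytes turned the direction of Vwf: 1.51 against Liver (edgeR adjusted p = 0.00185) and 1.37 against Cell Suspension (edgeR adjusted p = 0.0329). In cluster 12 Vwf was at 0, 17.1 and 41.7 CPM, from 66 UMIs in 1733 nuclei. That median lay above cluster 3 of Liver and below the other Liver endothelium. In the same comparison with Liver, Pecam1 (0.66, edgeR adjusted p = 0.000527) and Cdh5 (0.79, edgeR adjusted p = 0.000222) were called higher and Flt1 was no longer called (-0.24, edgeR adjusted p = 0.263). The comparison sets clusters against each other that were made from the same expression values, so it describes them. A platelet and megakaryocyte list of 4 genes, which could also carry Vwf, summed to 0 to 7.46 CPM in endothelial nuclei of Liver and 9.68 to 27.3 in Primary Hepatocytes. Itga2b was at 0 to 7.46 CPM in Liver and 4.84 to 27.3 in Primary Hepatocytes, Ppbp had no UMI, and their part in the Vwf values was not tested.

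**Figure D3:**
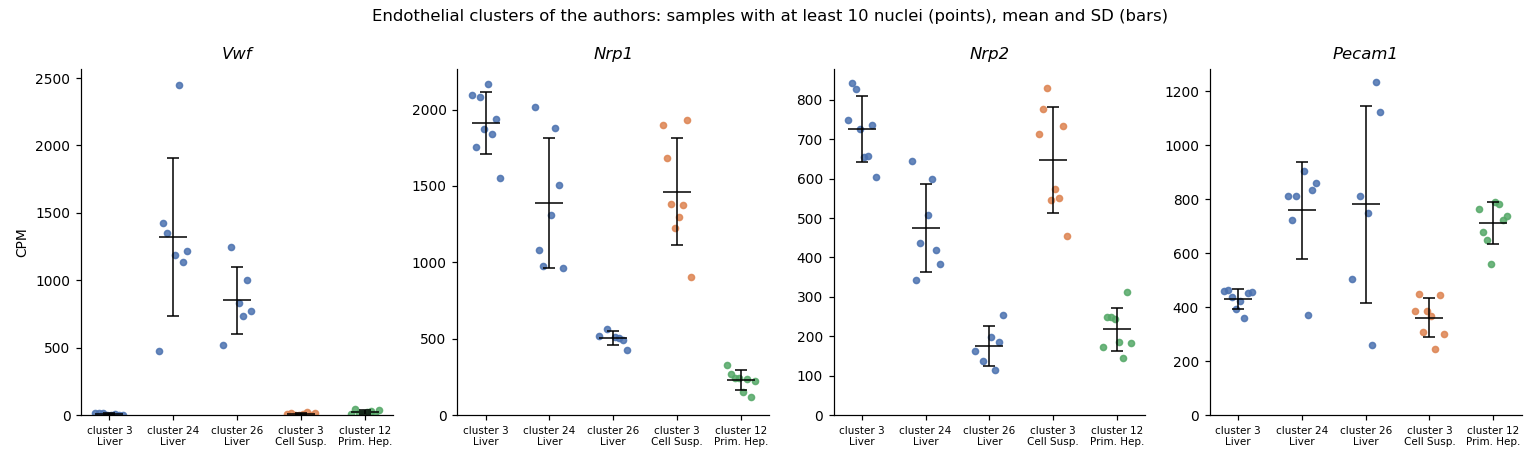
Unscaled CPM (vertical axes, linear) of Vwf, Nrp1, Nrp2 and Pecam1 in the authors' endothelial clusters (horizontal axes), for samples with at least 10 nuclei (points) with mean and SD (bars). Vwf stands near 0 in both cluster 3 groups and in cluster 12 and at 476 to 2448 CPM in cluster 24 of Liver.

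The neuropilins had their highest medians in cluster 3 of the tissue. Nrp1 was at 1554, 1907 and 2166 CPM in cluster 3 of Liver, 964, 1309 and 2014 in cluster 24 and 428, 508 and 566 in cluster 26. Nrp2 followed the same order, with medians of 731, 436 and 175 CPM. Pecam1 had medians of 444, 811 and 781 CPM, although its cluster 26 samples spread from 261 to 1234. Tek was highest in cluster 24, at a median of 1162 CPM against 699 in cluster 3 and 757 in cluster 26. Cdh5, Tie1 and Flt1 had medians of 222, 125 and 696 CPM in cluster 3 and of 235, 171 and 781 in cluster 24, and their ranges overlapped between the clusters. The 75 cluster 3 nuclei of Primary Hepatocytes had Nrp1 at 1133 CPM and Tek at 445 CPM, against 219 and 298 CPM in cluster 12 of the same group. Their median of 5110 UMIs per nucleus was above that of cluster 12 nuclei, 1351. Those 75 nuclei, 17 of them from mouse 7, held 476 of the 1126 Nrp1 UMIs and 204 of the 757 Nrp2 UMIs of Primary Hepatocytes. For cultured-sample nuclei that resembled uncultured endothelium, the paper names 2 possibilities, partial differentiation or wrong assignment from the other sample types. Which of them applies to these nuclei was not tested, and they stayed in the main fit.

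Shares of nuclei with a UMI were compared after thinning every nucleus to 1000 UMIs. Shallower nuclei were left out, 162 from Liver, 361 from Cell Suspension and 481 from Primary Hepatocytes. Nrp1 was seen in 72.8% ± 4.61 (SD, n = 8) of Liver endothelial nuclei, 70.5% ± 6.69 of those of Cell Suspension and 24.5% ± 11.1 of those of Primary Hepatocytes (21.1% ± 5.90 without mouse 7). In hepatocyte nuclei of the same groups it was seen in 35.8% ± 19.7, 25.1% ± 14.7 and 12% ± 1.63, far above the share of Cdh5 there. Cdh5 went from 19.3% ± 3.85 in Liver to 28.5% ± 6.72 in Primary Hepatocytes, with 0.163% and 0.349% in hepatocyte nuclei. Unthinned, Nrp1 was seen in 88.2%, 74.6% and 33.4% of endothelial nuclei, and the order of Cdh5 turned, with 44.6% in Liver and 40.6% in Primary Hepatocytes. Angpt2 was seen in 0.390% ± 0.314 of Liver endothelial nuclei, against 0.211% of hepatocyte nuclei, and in 4.79% ± 2.64 of those of Primary Hepatocytes, against 0.325% of hepatocyte nuclei. Apln was seen in 1.05% ± 0.982 in Primary Hepatocytes and in 0 of 2312 nuclei in Liver, which allows up to 0.130% of nuclei with a UMI at this depth and sets no limit on the share that express it. Unthinned, Angpt2 was seen in 1.67% of Liver endothelial nuclei and 1.75% of the deeper hepatocyte nuclei, and in 6.55% and 2.47% of those in Primary Hepatocytes. As a pooled level, Angpt2 was at 5.34 CPM in Liver endothelial nuclei (exact Poisson interval 3.93 to 7.11) and 2.02 CPM in Liver hepatocyte nuclei (1.80 to 2.27). Unthinned, Apln was seen in 1.37% in Primary Hepatocytes, against 0.175% of hepatocyte nuclei. Endothelial nuclei had a median depth of 3141.5 UMIs for Liver, 1506.5 for Cell Suspension and 1377 for Primary Hepatocytes, and hepatocyte nuclei one of 7572.5, 3459 and 6080.

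Since the matrices keep spliced and unspliced UMIs apart, the spliced share of each gene was compared as well. Of 22 tests over the members with enough UMIs, 13 passed, all with a higher spliced share after isolation or culture. Cdh5 went from 18.2% ± 6.18 spliced in Liver to 35.3% ± 11.3 in Cell Suspension and 38.0% ± 3.99 in Primary Hepatocytes (SD, n = 8 each). Primary Hepatocytes exceeded Liver in every sample (exact permutation test, two-sided, p = 0.000155, adjusted p = 0.00171). Nrp2 went from 16.1% ± 1.25 in Liver to 25.7% ± 4.71 in Primary Hepatocytes, with the same p-values of the exact permutation test. Tek stayed the least spliced of those tested, with means of 5.66% ± 1.69 for Liver, 10.5% ± 3.61 for Cell Suspension and 10.8% ± 2.67 for Primary Hepatocytes. Pecam1, Cdh5, Tek, Tie1 and Nrp1 passed for Cell Suspension against Liver (exact permutation test, adjusted p = 0.00513 to 0.0109), and of the comparisons between Primary Hepatocytes and Cell Suspension only Nrp2 passed (5.75 points, exact permutation test, adjusted p = 0.0465). Without the Primary Hepatocytes sample of mouse 7, 13 of the 22 passed again. All genes together moved the same way, from 18% ± 2.02 in Liver to 25.8% ± 3.39 in Cell Suspension and 31.4% ± 3.59 in Primary Hepatocytes. How many single genes outside the members would pass was not tested. The 13 passes are therefore not read as particular to the members. With the samples paired within mice, 9 of the 22 tests passed (exact sign-flip permutation, replicate block). Another 3 of the 22 had only 4 pairs and could not pass, since 4 pairs allow no exact p below 0.125. Among those 3 was Tie1 for Primary Hepatocytes against Liver, higher by 24.3 points when paired. Pecam1 (exact adjusted p = 0.0516) and Flt1 (exact adjusted p = 0.115) no longer passed for Primary Hepatocytes against Liver, nor did Nrp2 for Primary Hepatocytes against Cell Suspension (exact adjusted p = 0.119).

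**Figure D4:**
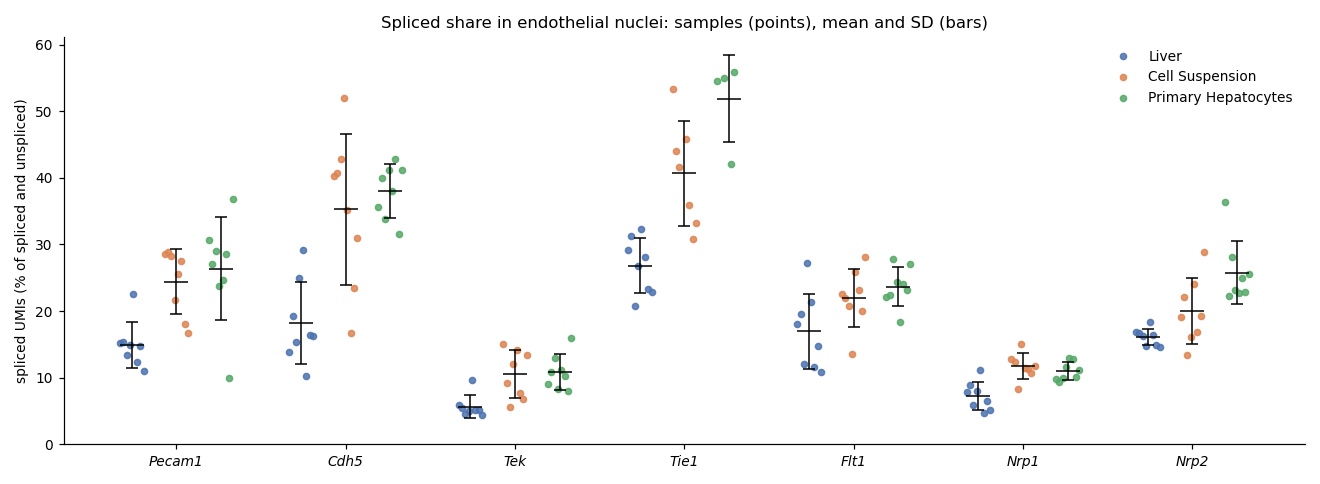
Spliced UMIs as a percentage of spliced and unspliced UMIs (vertical axis, linear) of 7 genes in endothelial nuclei by group; points are samples with at least 10 such UMIs of the gene, and bars give the mean and SD. All but Nrp1 have the highest mean in Primary Hepatocytes, and Liver has the lowest mean throughout.

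The genes around the members were described in lists of 96 genes, of which 87 were tested. Between Primary Hepatocytes and Liver 19 were called higher and 34 lower, against 15.4% higher and 18.4% lower over all genes. The median log2 fold change was -0.30, against -0.01 over all genes. The same shares are the background of every list below. Small counts, such as 2 of 11 semaphorins and plexins or 1 of 6 Notch genes higher, lie near them. Of 7 VEGF ligands and receptors, 2 rose and 3 fell. Kdr, the main signalling VEGF receptor, went from 467 to 966 CPM in Liver to 23.5 to 349 in Primary Hepatocytes (-2.78 ± 0.298, edgeR adjusted p = 3.06e-10). Flt4, the receptor of VEGF-C, fell from a mean of 469 to 197 CPM (-1.24 ± 0.15). Of the 5 ligands 2 rose and 1 fell. Vegfa rose from a mean of 42.7 to 144 CPM (1.83 ± 0.234), without overlap between the groups. Pgf, placental growth factor, which binds Flt1, went from a mean of 0.13 CPM in Liver to 40.6 in Primary Hepatocytes. Its mean in Cell Suspension was 0.41 CPM, and its median was 0 there and in Liver. As with Apln, Pgf passed the count filter only through Primary Hepatocytes, so it is described with no test, although these list counts include it. Vegfc, the ligand of Flt4, fell from a mean of 191 to 48.9 CPM (-1.82 ± 0.272, edgeR adjusted p = 6.44e-07), and Vegfb (-0.14 ± 0.448) and Vegfd (-0.30 ± 0.375) did not pass; these last 3 are named outside the rule for list genes. Of 5 angiopoietin and Tie partners 1 was called: Ptprb, the phosphatase that restrains Tek, fell from a mean of 4649 to 737 CPM (-2.68 ± 0.215, edgeR adjusted p = 1.66e-13).

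Of 5 apelin genes only 2 were tested, and Ece1, an endothelin-converting enzyme, was lower (-1.66 ± 0.155). Among 11 semaphorins and plexins tested, a list not limited to the class 3 semaphorins of the neuropilins, 2 rose and 4 fell. Sema3d fell from a mean of 38.6 to 6.57 CPM and Sema6a from 1670 to 393 CPM. Among 6 Notch genes tested, 1 rose and 2 fell, and the latter were the ligand Jag1 (-1.83 ± 0.263) and the receptor Notch1 (-1.73 ± 0.208). Of 18 junction and surface genes, 2 rose and 8 fell. Eng, a TGF-beta co-receptor, went from a mean of 959 to 260 CPM and Mmrn2, a matrix protein of vessels, from 166 to 47.2 CPM. S1pr1, the sphingosine-1-phosphate receptor that tightens junctions, rose from 27.6 to 174 CPM (2.66 ± 0.218), with no overlap.

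Of 16 endothelial transcription factors, none rose and 10 fell, with a median of -1.27. Elk3, an ETS factor, went from a mean of 566 to 121 CPM and Mef2c from 479 to 100 CPM. Among 10 genes of Weibel-Palade bodies and coagulation 4 rose and 3 fell. Myrip, which tethers those granules, fell from a mean of 104 to 7.48 CPM and was already at 15.0 CPM in Cell Suspension (-3.05 ± 0.332, edgeR adjusted p = 9.72e-09), as Vwf was. F8, coagulation factor VIII, fell from 1933 to 281 CPM between Liver and Primary Hepatocytes and was at 1631 CPM in Cell Suspension (-0.24 ± 0.277, edgeR adjusted p = 0.720). The 12 tip cell and sprouting genes, to whose kind Apln and Angpt2 belong, had 8 higher and 2 lower, with a median of 2.62 against -0.01 over all genes. The list is a selection. Counted elsewhere, Kdr, Flt4 and Nrp1 fell and Vegfa rose, as given above, while Dll4 did not pass (-0.24 ± 0.259, edgeR adjusted p = 0.512). Adm, adrenomedullin, rose from a mean of 2.25 to 71.7 CPM (5.00 ± 0.385) and Itgb3 from 30.4 to 476 CPM (4.01 ± 0.245). The paper already reports Itgb3 as high in cultured endothelial cells of these same data.

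The promoters of 6 members were found in the RefSeq table for GRCm38.p6 (Nrp2, Tek, Tie1, Flt1, Nrp1 and Apln). They are shown for one gene seen only in Primary Hepatocytes (Apln, in endothelial nuclei), one that fell least and one that fell without overlap, as the 250 bases before the transcription start, 5′ to 3′ on the gene's strand. Capitals mark the ETS core GGAAG or its reverse complement. Apln is at chrX:48034854-48035103 (minus strand), Flt1 at chr5:147726012-147726261 (minus strand) and Tek at chr4:94739039-94739288 (plus strand).
Apln: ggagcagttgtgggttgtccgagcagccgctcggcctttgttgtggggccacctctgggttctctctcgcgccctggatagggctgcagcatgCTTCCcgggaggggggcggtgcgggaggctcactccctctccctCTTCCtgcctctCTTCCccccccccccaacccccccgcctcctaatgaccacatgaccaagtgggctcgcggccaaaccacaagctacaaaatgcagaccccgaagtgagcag
Flt1: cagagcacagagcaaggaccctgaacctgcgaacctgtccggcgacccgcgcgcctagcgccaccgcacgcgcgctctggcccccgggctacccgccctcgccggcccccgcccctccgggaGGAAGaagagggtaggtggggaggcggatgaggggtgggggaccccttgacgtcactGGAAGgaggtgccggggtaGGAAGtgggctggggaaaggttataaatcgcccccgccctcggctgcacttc
Tek: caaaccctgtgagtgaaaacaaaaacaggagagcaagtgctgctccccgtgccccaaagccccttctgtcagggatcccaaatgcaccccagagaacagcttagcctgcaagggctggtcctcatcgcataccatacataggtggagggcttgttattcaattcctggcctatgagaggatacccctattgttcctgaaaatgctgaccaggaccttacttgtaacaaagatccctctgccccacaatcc
Apln and Flt1 each held 3 matches, as many as 10.7% of 32851 promoters hold or exceed, and Tek held none. Of the 6 members 4 had at least 1 match (Apln, Flt1, Nrp1 and Tie1), against 64.1% of all promoters. The Kruppel-like core CCACCC occurred in 3 of the 6 (Flt1, Nrp1 and Tie1; 28.1% of all promoters). The GATA letters AGATAA (9.99%), the hypoxia response core ACGTG (16.6%) and the AP-1 letters TGANTCA (6.75%) occurred in none of the 6, both strands searched. A match describes letters in this window and not a bound site.

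Outside the endothelium the members differed in how exclusive they were. In Liver, mean unscaled CPM in hepatocyte nuclei came to 0.451% of the endothelial level for Tek, 0.455% for Cdh5, 0.456% for Flt1, 0.66% for Vwf, 0.766% for Pecam1 and 1.05% for Tie1. Nrp2 stood at 4.94%, Nrp1 at 34.5% and the sparse Angpt2 at 37.2%, from means of 1.96 and 5.26 CPM. Kupffer nuclei of Liver had Cdh5 at 129, 182 and 252 CPM and Nrp1 at 107, 346 and 408, while Tek and Tie1 there were at medians of 9.59 and 0 CPM. Their Cdh5 range overlapped with that of cluster 3, 163 to 257 CPM. Pecam1 was at 208 to 519 CPM in leukocytes, Nrp1 at 186 to 446 CPM in stellate nuclei and Nrp2 at 43.3 to 391 CPM in biliary nuclei of Liver.

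In hepatocyte nuclei, 7 of the 9 genes were called between Primary Hepatocytes and Liver, 4 higher and 3 lower, against 53.7% of 26778 genes, 27.4% higher and 26.3% lower. Tek was at 2.94, 3.94 and 4.76 TMM-scaled CPM in Liver and 15.9, 21.8 and 29.5 in Primary Hepatocytes. Flt1 was at 2.24, 3.66 and 4.45 CPM in Liver and 8.74, 22 and 54.4 in Primary Hepatocytes. Neither gene overlapped between the groups, with log2 differences of 2.57 ± 0.143 (Tek, edgeR adjusted p = 8.46e-16) and 2.79 ± 0.28 (Flt1, edgeR adjusted p = 5.06e-10). Cdh5 was at 0.608 to 2.32 and 1.35 to 3.05 CPM (0.67 ± 0.267, edgeR adjusted p = 0.0332; 0.24, adjusted p = 0.490, with pool as a covariate), and Tie1 was lower (-1.98 ± 0.307). Pecam1 rose as well (0.78 ± 0.144, edgeR adjusted p = 2.67e-05), and Nrp2 fell (-2.35 ± 0.204). Apln, which passed the filter there too only through Primary Hepatocytes, had 4 UMIs in Liver and 32 in Primary Hepatocytes, pooled levels of 0.0284 CPM (exact Poisson interval 0.00774 to 0.0727) and 0.276 CPM (0.189 to 0.39). Vwf (0.04 ± 0.233, edgeR adjusted p = 0.915) did not pass. Angpt2 did not pass either (0.33 ± 0.184, edgeR adjusted p = 0.140), but its call turned on the setting: it passed with RLE scaling (0.43, edgeR adjusted p = 0.0475), with filterByExpr (0.41, edgeR adjusted p = 0.0398) and by DESeq2 (0.42, adjusted p = 0.0360), and was at -0.02 with pool as a covariate (edgeR adjusted p = 0.948). In unscaled CPM Angpt2 was at 1.60 to 2.38 in Liver and 3.22 to 4.33 in Primary Hepatocytes, without overlap. Unscaled values in hepatocyte nuclei stand 0.57 higher on the log2 scale in Primary Hepatocytes against Liver than TMM-scaled ones, for every gene alike. Together, 10 sinusoidal genes summed to 60.0 to 109 unscaled CPM in hepatocyte nuclei of Liver and 80.4 to 94.8 in those of Primary Hepatocytes. As a share of the endothelial level in Primary Hepatocytes, hepatocyte nuclei held 39.0% for Nrp1, 9.86% for Vwf and 8.99% for Angpt2. The share was 8.24% for Tek, 5.83% for Flt1 and 0.775% for Cdh5. For Vwf the endothelial level had fallen, to a mean of 21.6 CPM.

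Among the cultured hepatocyte clusters, Tek was at 131, 175 and 203 CPM over the 8 mice in cluster 14. In clusters 0, 1, 8 and 17 its medians were 11.8, 17.4, 26 and 11.6 CPM, and no sample exceeded 51.7. Pecam1 was at a median of 25.6 CPM in cluster 14 and 28.4 in cluster 8, against 5.69 to 10.2 in the other clusters, whereas Cdh5 and Tie1 were at medians of 2.06 and 0.337 CPM in cluster 14. Of the Tek UMIs in cluster 14, 5.83% were spliced. Flt1 had a median of 20.7 CPM in cluster 14, against 25.3 in cluster 0, 33.1 in cluster 1, 42.7 in cluster 8 and 9.83 in cluster 17. Nuclei of cluster 8 had a median of 2565 UMIs, against 5703.5 in cluster 14, and Cdh5 was at a median of 8.79 CPM in cluster 8.

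Nrp1 in hepatocyte nuclei varied by mouse. In Liver it was at 1406 CPM in mouse 3 and 1351 in mouse 5, at 569 in mouse 6, and at 169 to 462 in the other 5. The same 3 mice led in Cell Suspension, with 682 and 941 CPM in mice 3 and 5, 393 in mouse 6 and 122 to 279 in the others. Over the 8 mice Liver and Cell Suspension values had Pearson's r = 0.963 (exact permutation p = 0.00149, adjusted 0.00298 over 2 relations) and Spearman's rho = 0.976 (exact permutation p = 0.000397, adjusted 0.000794), and r = 0.987 without mice 3 and 5. The Liver and Cell Suspension samples of mouse 3 were in pools 1 and 4 and those of mouse 5 in pools 5 and 2. Both samples of mouse 6 were in pool 6, and both of mouse 7 in pool 1. The Primary Hepatocytes samples of mice 3, 5 and 6 were in pools 5, 3 and 3. The part of pool in this relation was not tested. In Primary Hepatocytes the 8 mice lay between 126 and 233 CPM, and r with Liver was 0.0251 (exact permutation p = 0.902; rho = 0.0952, exact permutation p = 0.840; r = 0.291 without mice 3 and 5). Of the Nrp1 UMIs in Liver hepatocyte nuclei 3.16% were spliced, against 9.24% in Primary Hepatocytes. The fall between the groups was -2.45 ± 0.456 (edgeR adjusted p = 2.81e-05), with overlapping ranges. This relation was examined after the values were seen. The paper already reports that some Liver and Cell Suspension nuclei grouped by mouse, mainly those of mice 3, 5 and 6. It saw no such grouping in Primary Hepatocytes. How many other genes share the pattern of Nrp1 was not tested, so it is not given as particular to Nrp1.

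**Figure D5:**
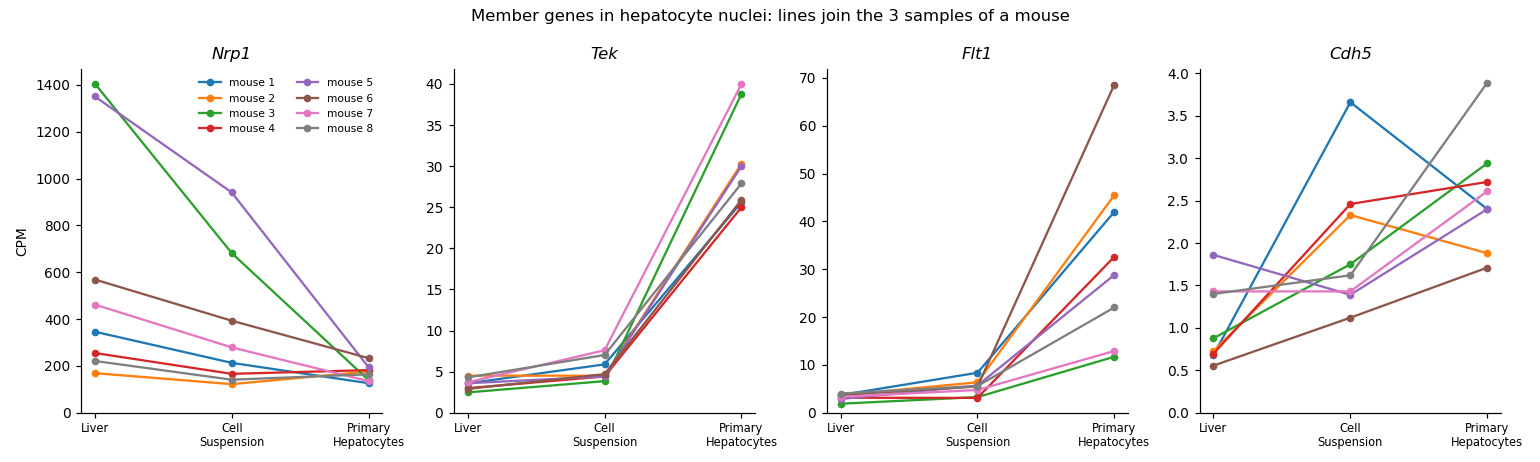
Unscaled CPM (vertical axes, linear) of Nrp1, Tek, Flt1 and Cdh5 in hepatocyte nuclei by group (horizontal axes); each line joins the 3 samples of a mouse. Mice 3 and 5 lead Nrp1 in Liver and Cell Suspension but not in Primary Hepatocytes, and Tek and Flt1 are highest in Primary Hepatocytes in all 8 mice.

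For the 8 members with a mean of at least 20 CPM, correlations over the 24 samples were taken once group means were subtracted. The highest were between Cdh5 and Flt1 (r = 0.81, or 0.779 without the Primary Hepatocytes sample of mouse 7), Nrp1 and Nrp2 (0.755, or 0.67) and Pecam1 and Cdh5 (0.691, or 0.70). Nrp2 and Flt1 were at -0.439, or -0.272 without that sample. Vwf reached no more than 0.33 with any member and Tie1 no more than 0.495. These describe samples that also share depth, pool and the makeup of their nuclei. Of 6826 genes compared, the 3 most like each member over all samples were listed, and 14 of these 24 were again among the 3 most alike without that sample. For Tek they were Tbc1d5 (r = 0.911, or 0.90 without it), Lamp2 (0.878, or 0.858) and Kdm4c (0.875, or 0.893), and for Vwf they were Thsd7a (0.703, or 0.74), Sept9 (0.667, or 0.707) and Ptpn14 (0.659, or 0.723). All 3 held for both. For Nrp1 they were Psd3 (0.912, or 0.887), Kdr (0.899, or 0.869) and Ehd3 (0.881, or 0.846), and the first pair held. For Nrp2 they were Mrc1 (0.891, or 0.806), Itga1 (0.891, or 0.814) and Tnik (0.884, or 0.814), of which Tnik held. For Pecam1 they were Tmsb4x (0.863, or 0.867), Sem1 (0.856, or 0.854) and Pde4b (0.851, or 0.848), and for Flt1 Dnajb6 (0.878, or 0.865), Kalrn (0.859, or 0.878) and Copg2 (0.852, or 0.827), each with all but the last holding. For Cdh5 they were Arf3 (0.839, or 0.811), Egln1 (0.834, or 0.813) and 2510009E07Rik (0.834, or 0.818), of which the last held. For Tie1 none of Micu2 (0.767, or 0.666), Usp12 (0.766, or 0.682) and Plxnd1 (0.741, or 0.619) held.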

How the data were processed

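The submitters' notes name bcl2fastq 2.19.0, Salmon, alevin and GRCm38. The authors deposited counts of UMIs per nucleus for spliced, unspliced and ambiguous RNA, pseudo-aligned to Ensembl GRCm38, with a table of singlet nuclei giving hashtag sample, annotation and cluster; hashtag and inferred doublets had been removed before deposit. The deposited hashtag margin is a fraction and was only described. The 3 states were added and summed per sample over endothelial nuclei (Endothelial Cells, and cluster 12 of Cultured Cells) and over hepatocyte nuclei. Genes with at least 10 counts were fitted with edgeR 4.0.16 (TMM, quasi-likelihood test, groups only) in R 4.3.3, and p-values were adjusted over all genes. DESeq2 1.42.0 and other settings were alternatives. Leaving out the Primary Hepatocytes sample of mouse 7 was chosen after seeing the data. The study's methods fitted DESeq2 on groups. Spliced shares were compared by exact permutation tests (scipy 1.17.1). Intervals cover counting error only. No unmapped sample columns were used, and the matrices lie in 6 pools whose hashtags give the 24 samples.

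The same number marks the same mouse. Deviations of same-mouse samples from their group means had median correlations of 0.151 for Liver and Cell Suspension and 0.0223 for Liver and Primary Hepatocytes over 3900 genes. The fit was tested on simulated data for Primary Hepatocytes over Liver in endothelial nuclei, with 50 genes changed per size among 18264 tested. Recovered were 98% of those changed by -2, 60% by -1, 70% by 1 and 100% by 2 (log2), with 12 false calls. The changed genes were drawn from genes with higher counts, and all genes were given the same spread. Recovery of sparse genes such as Apln was not tested. Within each list the text names up to 2 genes per direction that were called, reached 20 CPM in either group and did not overlap between Liver and Primary Hepatocytes, and it names the 3 genes most like each member; Mcph1, the promoter sequences shown and the cultured hepatocyte clusters were chosen after their values were seen. The members and lists were chosen with earlier results of these data known.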

Additional observations from a re-analysis of the deposited data

Results flagged for a closer look

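The change from Liver to Primary Hepatocytes was compared between endothelial and hepatocyte nuclei of the same mice, as differences of log2(CPM + 1), by an exact sign-flip permutation test over the 8 mice, adjusted over the 10 genes; the smallest p it allows is 0.00781. This comparison was chosen after the data were seen. It differed for Tek (endothelial minus hepatocyte -3.59, lower in 8 of 8 mice, exact adjusted p = 0.026), Flt1 (-2.85, 8 of 8, exact adjusted p = 0.026) and Vwf (-3.40, 8 of 8, exact adjusted p = 0.026). It also differed for Nrp2 (0.65, higher in 7 of 8, exact adjusted p = 0.0312). For Tie1 it was -1.08 (7 of 8, exact adjusted p = 0.0391), but with a pseudocount of 0.1, chosen after seeing the data, it was -0.31 (4 of 8, exact adjusted p = 0.555), so that no difference is reported for Tie1. For Apln it was 2.46, higher in 7 of 8, given without its test since Apln passed the count filter only through Primary Hepatocytes. Tek and Flt1 were higher in culture in hepatocyte nuclei of 8 of 8 mice, whereas Tek was higher in endothelial nuclei of 0 and Flt1 of 1. For Nrp1 the difference was -0.32 (exact adjusted p = 0.521) and for Angpt2 1.92 (exact adjusted p = 0.0558). The pseudocount of 1 damps the values of genes near 0, such as Tie1, Vwf and Apln in hepatocyte nuclei; with 0.1, Tek (-3.84), Flt1 (-3.10), Vwf (-3.48) and Nrp2 (0.79) still passed (exact adjusted p = 0.0195 each).

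Of 58 groups of 8 samples examined, 3 had a sample far from the others, all in hepatocyte nuclei of Cell Suspension; chance gives about 1 in 20 such groups. Pecam1 was at 2.82 CPM in mouse 3 against 5.51 in the next sample, Nrp2 at 12.8 CPM in mouse 5 against 21.7, and Apln at 0.516 CPM in mouse 7 against 0.214. The Apln value is 1 UMI among the 2104087 of that sample, the fewest of its group, and the next sample had 2 UMIs.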

How the results depend on the processing

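The directions of Tek, Tie1, Nrp1, Nrp2 and Angpt2 in endothelial nuclei of Primary Hepatocytes against Liver, and their calls, held under every alternative in which they were tested; Angpt2 was not tested with filterByExpr. When 1 mouse was left out, the log2 difference there lay between -1.46 and -1.15 for Tek and between -2.07 and -1.66 for Tie1. The range was -2.37 to -2.06 for Nrp1, -1.63 to -1.34 for Nrp2 and 2.93 to 3.26 for Angpt2. Cell Suspension against Liver, where Apln had no UMI, had 1 member called whichever mouse was left out, against 432 to 768 of all genes. That count of members was 2 with pool as a covariate and 0 for cluster 3 against cluster 12. Vwf reversed in that last setting, to 1.51 against Liver for Primary Hepatocytes, 0.14 for Cell Suspension and 1.37 for Primary Hepatocytes against Cell Suspension, since the nuclei outside cluster 3 are left out; in hepatocyte nuclei it was -1.60 from spliced UMIs alone against 0.04, and the cause was not tested. With the replicate block, among the 9 tested members only the call of Vwf in Primary Hepatocytes against Cell Suspension changed. This holds over the 3 endothelial comparisons and hepatocyte nuclei. The spliced shares lost under pairing, and those with too few pairs to pass, are given above.

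All genes called in Primary Hepatocytes against Liver, 6181 in the reported fit, were 3818 with filterByExpr, 3268 with pool as a covariate, 3421 from spliced UMIs alone and 2434 with samples thinned to the smallest total. For Cell Suspension against Liver (712) they were 334, 325 and 245 with pool, spliced UMIs and thinning, and 432 to 768 without 1 mouse, lowest without mouse 1 (432) and mouse 3 (469). For Primary Hepatocytes against Cell Suspension (3656) they were 1697 from spliced UMIs and 1941 thinned. Within cluster 3 (447) they were 213 with pool, 246 spliced, 242 unspliced, 185 thinned and 255 to 453 without 1 mouse, lowest without mouse 1 (255) and mouse 3 (281). Fewer UMIs or genes enter the thinned, spliced, unspliced and filtered fits. The Primary Hepatocytes sample of mouse 7 and low UMI totals limit Apln and Angpt2, and Liver and Primary Hepatocytes samples met only in pools 2 and 5, so pool and group are partly confounded.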
